A study of Mus musculus with 12 samples.

Results

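The clustered histone genes are the Hist1, Hist2, Hist3 and Hist4 genes that encode the linker histone H1 and the core histones H2A, H2B, H3 and H4. They were taken from the count table by symbol, as every gene whose symbol begins with Hist1h to Hist4h followed by 1, 2a, 2b, 3 or 4. This rule used no measured value, but the set was chosen with earlier results of these data known. This gave 70 genes of 55573 in the table, which were 6 H1, 20 H2A, 19 H2B, 12 H3 and 13 H4 genes. On GRCm38, 56 of them lie on chromosome 13, 10 on chromosome 3, 3 on chromosome 11 and 1 on chromosome 6, and 3 are annotated as pseudogenes (Hist1h2aj, Hist1h2al and Hist3h2bb-ps).

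RNA-seq was performed on macrophages grown from mouse bone marrow, in 4 groups of 3 libraries. All mice were C57BL/6, carried the floxed allele BMI1fl/fl and received poly I:C at 6 to 8 weeks of age, as 5 doses of 15 mg/kg on alternate days. Mice without Cre were the wt group, and BMI1fl/fl Mx1-Cre mice were the BMI1-KO group. Mx1-Cre is driven by an interferon-responsive promoter, so that Cre acts in every cell that responds to poly I:C and not in macrophages alone. Marrow was taken 4 weeks after the last dose and left in serum-free medium for 2 hours, and the adherent cells were kept in 5 ng/mL M-CSF for 7 days to give MΦs. MM-MΦs were such MΦs kept for another 48 hours with 5TGM1 cells, a murine myeloma line. CD11b+ F4/80+ cells were sorted before RNA extraction. The labels do not say whether the 3 replicates of a group came from separate mice, so the p-values measure the spread between these libraries, which may be technical.

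Clustered histone genes are the replication-dependent histone genes. As a rule, their transcripts are made in S phase to package newly copied DNA, lack introns, and end in a conserved stem-loop in place of a poly(A) tail. The stem-loop is bound by SLBP. Some gene models used here depart from this rule: those of Hist1h2bc, Hist1h2be, Hist1h2bp, Hist1h2bq and Hist1h2br contain introns. Replacement variants such as H3.3 are encoded elsewhere by polyadenylated transcripts and are made throughout the cell cycle. Macrophages that have left the cell cycle make little replication-dependent histone mRNA, so in a culture the level of these genes follows the cells that replicate DNA. In bulk RNA, fewer replicating cells and less histone RNA per cell cannot be told apart.

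The stem-loop is shown first because it sets how these transcripts end. A perfect loop of 6 paired bases on either side of 4 loop bases was found within 100 bases after the stop codon in the annotated transcript of 46 of the 70 genes (4 of 6 H1, 11 of 20 H2A, 10 of 19 H2B, 9 of 12 H3 and 12 of 13 H4). For 13 genes the gene model ends at the stop codon, so that no loop could be looked for there. Capitals mark the paired bases.
Most frequent form in H1, H2A, H2B and H3 genes (26 genes): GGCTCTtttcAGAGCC
Most frequent form in H4 genes (7 genes): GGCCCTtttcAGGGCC
Hist1h4b and Hist1h4j: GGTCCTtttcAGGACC
The paired arms of the H4 loops differed from those of all other families in these gene models, and in Hist1h4b and Hist1h4j both arms differed from the other H4 genes. Only loops with fully paired arms were searched for, so the pairing itself is not a result. The first of these forms stands 31 bases after the stop codon of Hist1h1d, a linker histone gene whose model (chr13:23553262-23560686, plus strand) runs on for another 4884 annotated bases.

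The upstream sequences of genes that return in the results are shown next, from RefSeq on GRCm38.p6, each ending at the base before the annotated start. Capitals mark the CCAAT box in either orientation, the TATA box and the H1 box, an element known from H1 promoters, each with the letters spelled out after the sequences.
Hist1h2bn, in the gap of 163 bases shared with Hist1h2ak on the opposite strand (chr13:21753913-21754075, plus strand): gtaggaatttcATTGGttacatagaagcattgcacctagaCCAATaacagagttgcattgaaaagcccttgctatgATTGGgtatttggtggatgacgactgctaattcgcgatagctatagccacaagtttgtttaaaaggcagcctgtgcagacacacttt
Hist1h1b (chr13:21780626-21780875, minus strand): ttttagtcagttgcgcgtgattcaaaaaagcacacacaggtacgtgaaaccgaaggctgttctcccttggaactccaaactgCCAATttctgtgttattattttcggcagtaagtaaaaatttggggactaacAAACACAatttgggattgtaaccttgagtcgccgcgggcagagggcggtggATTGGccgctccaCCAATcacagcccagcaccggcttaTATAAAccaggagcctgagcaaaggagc
Hist1h4k (chr13:21750554-21750803, minus strand): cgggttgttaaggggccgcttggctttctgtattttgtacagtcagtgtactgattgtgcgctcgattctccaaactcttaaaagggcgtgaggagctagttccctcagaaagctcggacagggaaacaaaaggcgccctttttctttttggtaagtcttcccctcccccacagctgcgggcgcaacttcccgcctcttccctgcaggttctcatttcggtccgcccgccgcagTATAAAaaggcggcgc
Of the 70 genes, 61 were matched to a RefSeq promoter window of 250 bases before to 50 bases after the start, searched on both strands. CCAAT was present in 100% of the H1, H2A, H2B and H3 windows and in 25% (3 of 12) of the H4 windows, against 37.4% of all 32851 promoter windows. The TATA box TATAAA was present in 55.7% of the 61 windows, against 13.6% of all. The H1 box AAACACA was found in 4 of 5 H1 windows, against 7.18% of all windows. TTTGCAT, the octamer core, was found in 38.9% of H2A and 37.5% of H2B windows, against 4.63% of all. Such a match is a run of letters and not a bound site.

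Near-identical coding sequences limit what the counts of single genes mean. Within a family, pairs of coding sequences of the same length were identical at a median of 96.4% of positions in H2A, 95.7% in H2B, 97.2% in H3 and 93.9% in H4. A median of 54.5% of a gene's 50-base windows occurred in another annotated gene too. For 36 of the 70 genes the share was at least 50%, and for 5 it was 100%. Hist1h1a and Hist1h1b shared no such window, and Hist1h1d shared 2.25% of its own. The values of most H2A, H2B, H3 and H4 genes below are therefore uncertain between copies, while the sums over a family are less so. All 20 H2A genes also overlap annotated genes on the other strand, which held 423 counts over the 12 libraries, and the sources used here do not give whether the counting used strand.

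The libraries held 9662279 to 11142768 counts, and the labels were checked before use. Bmi1 had 251 to 364 counts in the 6 wt libraries, while the table lists it at 0 in every BMI1-KO library. The floxed segment covers exons 4 to 8, so that a 0 over the whole gene goes beyond the deleted exons. Cdkn2a, which BMI1 represses, had 0 to 7 counts in wt and 108 to 230 in BMI1-KO libraries. The 10 macrophage markers, led by Lyz2 and Csf1r, summed to 14590 to 22163 CPM, the count scaled to a fixed library size, with none at 0 in any library. Erythroid markers and B and T cell markers stood at or near 0, at no more than 0.817 and 0.537 summed CPM.

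Clustered histone transcripts took from 0.0151% of a library's counts, in BMI1-KO MΦs replicate 1, to 0.386%, in wt MΦs replicate 3. The share also varied widely within a group, from 0.0257% to 0.386% in wt MΦs and from 0.0151% to 0.0514% in BMI1-KO MΦs. CPM was computed on library sizes after TMM scaling. The 70 genes summed to 270.9, 580 and 3549 CPM in wt MΦs replicates 1, 2 and 3, and to 376, 740 and 3141 CPM in wt MM-MΦs. The BMI1-KO sums were 152, 371 and 496 CPM without co-culture and 165, 589 and 1078 CPM after it. Replicate 1 was the lowest and replicate 3 the highest of its group in all 4 groups, and both wt libraries numbered 3 stood above the other 10. The mean was 1467 ± 1810 CPM (SD, n = 3) in wt MΦs and 1419 ± 1502 in wt MM-MΦs. It was 339.8 ± 174 CPM for MΦs and 611 ± 457 CPM for MM-MΦs of the BMI1-KO genotype, and all 4 groups overlapped.

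The shares of the 5 families varied less than the level, and those of H1 and H3 varied most. H4 genes gave a median of 26.9% of the clustered histone counts of a library (24.3% to 29.1%), H2B 22.7% (19.3% to 27.1%), H1 22.0% (17.1% to 32.4%), H3 16.2% (7.05% to 20.1%) and H2A 11.9% (10.6% to 13.7%). The highest H1 shares and the lowest H3 shares came from the libraries with the lowest sums, BMI1-KO replicate 1, at 32.4% and 31.7% for H1 and 7.05% and 9.84% for H3 in MΦs and MM-MΦs. In wt MΦs replicate 3, the library with the highest sum, H1 genes gave 19.6% and H3 genes 20.1%. In BMI1-KO MΦs replicate 1, H1 genes summed to 49.4 CPM and H3 genes to 10.7 CPM. In wt MΦs replicate 3 the same sums were 697 CPM for H1 and 713 CPM for H3 genes. Hist1h1c alone gave 39.6 of the 49.4 CPM of H1 genes in BMI1-KO MΦs replicate 1. In BMI1-KO MM-MΦs replicate 1 it gave 38.2 of 52.4 CPM, and in wt MΦs replicate 3 it gave 170 of 697 CPM. The high H1 shares in BMI1-KO replicate 1 thus rest on Hist1h1c.

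**Figure D1:**
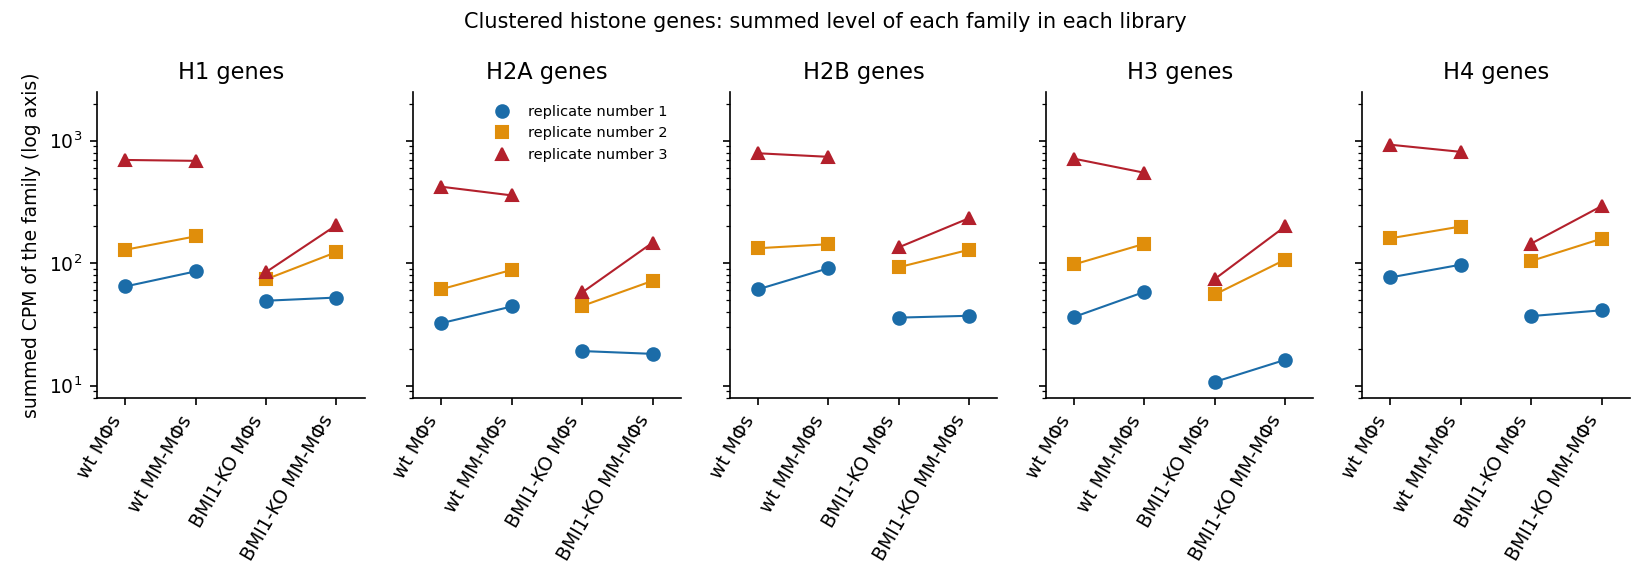
Summed CPM (log axis) of the H1, H2A, H2B, H3 and H4 genes in each of the 12 libraries, with lines joining the MΦ and MM-MΦ libraries that carry the same replicate number within a genotype. In every family both wt libraries numbered 3 are above the other 10, and replicate 1 is lowest in each group; in BMI1-KO the lines of numbers 2 and 3 slope upward in all 5 families.

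Of the 70 genes, 60 had enough counts to be tested, as 5 H1, 15 H2A, 16 H2B, 11 H3 and 13 H4 genes. The other 10 were low throughout. Hist1h2aa, Hist1h2ba and Hist2h3c1 had 0 counts in all 12 libraries. Hist1h1t, the testis H1, had 6 counts in 1 library and 0 in the others. The highest count in any library was 24 for Hist1h2ai, 20 for Hist2h2ab, 9 for Hist1h2br, 5 for Hist3h2ba, 4 for the pseudogene Hist1h2aj and 1 for Hist1h2ap.

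Levels are compared between genes as mean CPM per kilobase of exonic sequence over the 12 libraries. Among linker histone genes, Hist1h1b (H1.5) was highest at 66.3 CPM per kilobase, followed by Hist1h1a (H1.1) at 41.0, Hist1h1c (H1.2) at 40.6 and Hist1h1e (H1.4) at 9.49. Among H2A genes the 4 highest were Hist1h2ak at 80.4, Hist2h2ac at 45.7, Hist1h2ao at 28.9 and Hist1h2af at 25.6 CPM per kilobase. Among H2B genes they were Hist1h2bn at 95.2, Hist1h2bf at 55.5, Hist2h2bb at 47.6 and Hist1h2bg at 44.8. Hist1h3e at 46.7, Hist1h3i at 42.6, Hist1h3g at 35.0 and Hist1h3c at 32.2 led the H3 genes. Hist1h4f at 74.9, Hist1h4h at 64.7, Hist1h4d at 58.2 and Hist1h4k at 48.6 led the H4 genes. The spread between libraries was larger than the gaps in these orders, and the means are carried by the wt libraries numbered 3: Hist1h1c stood above Hist1h1b per kilobase in all 4 libraries numbered 1. Long gene models lower a value per kilobase. Hist1h1d (H1.3), for example, has a model of 7425 exonic bases and stood at 5.38 CPM per kilobase.

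The spread between replicates was shared by most single genes. Hist1h1b was measured at 6.20, 24.1 and 193 CPM in wt MΦs and at 11.3, 37.8 and 206 CPM in wt MM-MΦs. In BMI1-KO it was measured at 1.15, 13.9 and 22.4 CPM in MΦs and at 2.76, 25.8 and 46.9 CPM in MM-MΦs. Replicate 3 was thus highest in each group, and the lowest wt library lay below the highest BMI1-KO library in both cultures. Hist1h4d, the clustered histone gene with the most counts, was measured at 19.0, 49.6 and 245 CPM in wt MΦs and 26.8, 48.6 and 195 CPM in wt MM-MΦs. Its BMI1-KO values were 11.8, 32.4 and 35.2 CPM before co-culture and 16.0, 43.1 and 73.3 CPM after it, with the replicates in the same order and over a smaller range. In 55 of the 60 tested genes both wt libraries numbered 3 lay above all 10 others, a pattern held by 10.9% of all 14197 genes tested. These 55 were 5 of 5 H1, 11 of 15 H2A, 16 of 16 H2B, 10 of 11 H3 and 13 of 13 H4 genes. Replicate 3 was highest in all 4 groups for 45 of the 60 genes, against 13.8% of all genes tested. No test was attached to these counts, since the replicate was picked out after its values were seen.

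Some clustered histone genes did not share this spread. With MΦs and MM-MΦs of a number summed, the log2 ratio of replicate 3 over replicate 1 had a median of 3.61 over the 60 genes in wt and 3.06 in BMI1-KO, beside −0.01 and 0.01 over all genes tested. It reached at least 2 for 51 genes in wt and for 46 in BMI1-KO. Genes whose annotated transcript goes on for at least 500 bases after the stop codon had lower medians, of 2.99 in wt and 1.97 in BMI1-KO over 15 genes, than the 43 genes with a shorter annotated end, at 3.85 and 3.49. Both classes held 4 genes under 2 in wt. Among those with a shorter end were Hist2h2aa1 at −2.80, Hist2h2aa2 at −0.54 and Hist2h3c2 at 0.64. Hist2h2aa1 had 0 counts in both wt libraries numbered 3, and all its 50-base windows occur in another gene. Hist2h2be, an H2B gene with 2192 annotated bases after the stop codon, was measured at 1.02, 3.27 and 3.93 CPM in wt MΦs and at 2.71, 1.81 and 2.36 CPM in BMI1-KO MΦs. Hist1h2bc, another H2B gene of this kind, stood at 18.1 CPM in all 3 BMI1-KO MΦ libraries and at 16.7, 18.1 and 43.5 CPM in wt MΦs. No stem-loop was found in the annotated transcripts of Hist2h2be and Hist1h2bc, and the gene model of Hist1h2bc contains an intron. Hist1h2al, an annotated H2A pseudogene that lies outside the main cluster (chr13:51202727-51203065, minus strand), ran the other way in wt, with 27, 37 and 0 counts in wt MΦs and 43, 80 and 2 in wt MM-MΦs. In BMI1-KO the same gene had 30, 80 and 60 counts in MΦs and 17, 85 and 142 in MM-MΦs. Hist2h2be, Hist1h2bc, Hist1h2al, Hist2h2aa1, Hist2h2aa2 and Hist2h3c2 are named here because of their values.

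**Figure D2:**
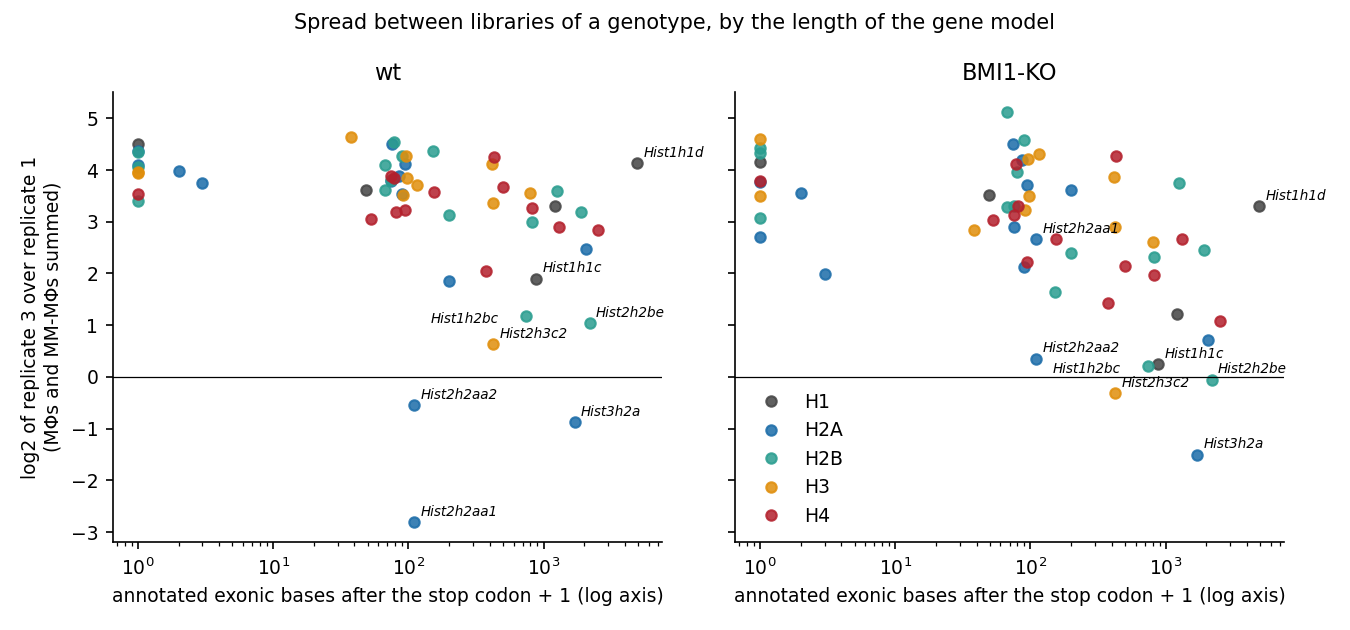
Log2 ratio of replicate 3 over replicate 1 (MΦs and MM-MΦs summed, sums under 3 counts set to 3) against the annotated exonic bases after the stop codon plus 1 (log axis), for the 58 tested genes with a coding sequence, in wt and BMI1-KO. Most points lie between 2 and 5 on the vertical axis, and the labelled genes other than Hist1h1d are among the lowest in wt. Hist1h1d, with the longest annotated end, stays high in both genotypes.

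The comparison of BMI1-KO with wt MΦs asked how loss of BMI1, a Polycomb protein that represses Cdkn2a, altered macrophages before contact with myeloma cells. No clustered histone gene passed the edgeR test after adjustment, which called 6 of 14197 genes (0.0423%). This fit had no block for the replicate number, and calls under a block over all 4 groups are given in the last paragraph. The fitted log2 fold changes nevertheless lay below 0 for 56 of the 60 genes, against 51.7% of all genes tested, with a median of −2.20 (range −3.62 to 1.33). By family the medians were −2.57 for H1, −2.22 for H2A, −2.01 for H2B, −2.65 for H3 and −1.99 for H4. At an unadjusted edgeR p under 0.05 there were 6 genes, against 5.63% of all genes, and DESeq2 also called none after adjustment. The smallest p belonged to Hist1h3b, an H3 gene, at log2 −3.62 (SE 1.48, edgeR adjusted p = 0.858).

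The libraries behind these folds overlapped for nearly every gene. Hist1h3b was measured at 2.64, 5.21 and 78.8 CPM in wt MΦs and at 0.312, 2.29 and 4.36 CPM in BMI1-KO MΦs, so that the highest BMI1-KO library stood above the lowest wt library. The libraries of the 2 groups did not overlap for 2 genes, both lower in BMI1-KO, against 4.83% of all genes tested, and no gene was higher without overlap, against 5.17% of all. These were Hist1h1c, at 40.6, 50.5 and 170 CPM in wt and 39.6, 37.7 and 27.5 CPM in BMI1-KO, and Hist1h4m, an H4 gene, at 4.37, 3.37 and 39.6 CPM in wt and 0.625, 1.81 and 2.99 CPM in BMI1-KO. Their log2 fold changes were −1.32 and −3.11, and neither passed the adjusted threshold.

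The question of interest for myeloma-associated cells is the comparison of BMI1-KO with wt MM-MΦs. Here too no clustered histone gene was called by edgeR, while 8 of 14197 genes were (0.0563%), and DESeq2 called none. The log2 fold changes lay below 0 for 56 of the 60 genes, against 52.5% of all genes, with a median of −1.08 (range −2.83 to 0.87) and family medians of −1.47 for H1, −1.01 for H2A, −1.13 for H2B, −1.23 for H3 and −1.07 for H4. The unadjusted p was under 0.05 for 1 gene, against 4.85% of all. This was Hist2h2be at log2 −1.04 (SE 0.46, edgeR adjusted p = 0.994), measured at 2.90, 2.48 and 4.12 CPM in wt and 1.38, 1.60 and 1.61 CPM in BMI1-KO MM-MΦs. It was also the only gene whose libraries did not overlap, where 4.46% of all genes were lower and 4.40% higher without overlap.

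The highest genes of each family show the same overlap. Hist1h2bn, the highest H2B gene, was measured at 10.7, 17.6 and 152 CPM in wt MM-MΦs and at 1.17, 12.9 and 26.4 CPM in BMI1-KO MM-MΦs (log2 −2.15). Hist1h2ak, which faces it across the divergent promoter printed above, was measured at 9.08, 25.5 and 101 CPM in wt and 2.44, 22.2 and 44.5 CPM in BMI1-KO MM-MΦs (log2 −0.97). In both genes the wt library numbered 3 exceeded every other, and wt replicate 1 lay within the BMI1-KO range. Hist1h3e, the highest H3 gene, had 15.0, 44.2 and 104 CPM in wt and 5.00, 25.2 and 48.9 CPM in BMI1-KO MM-MΦs (log2 −1.04). Hist1h4f, the highest H4 gene, had 7.19, 25.7 and 107 CPM in wt and 3.08, 21.8 and 29.7 CPM in BMI1-KO MM-MΦs (log2 −1.36). None of the 4 passed the test.

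The size of both genotype differences depended on the libraries numbered 3. Without all 4 of them, the median log2 fold change over the 60 genes was −0.69 in MΦs, with 51 genes below 0, and −0.49 in MM-MΦs, with 54 below 0, and edgeR called none of the 60, with 3 and 1 of them at an unadjusted p under 0.05. Without the 2 wt libraries numbered 3 alone, a removal that keeps the highest BMI1-KO libraries, the median was −0.28 in MΦs, with 40 genes below 0, and 0.17 in MM-MΦs, with 16 below 0. In MM-MΦs 41 genes turned from below to above 0, in MΦs 16 did so, and again no gene was called. The shares over all genes are not given for these reduced fits, so their counts have no background beside them. By replicate number, the BMI1-KO sum divided by the wt sum came to 0.562, 0.64 and 0.14 before co-culture, and to 0.439, 0.796 and 0.343 after it, below 1 in every number.

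**Figure D3:**
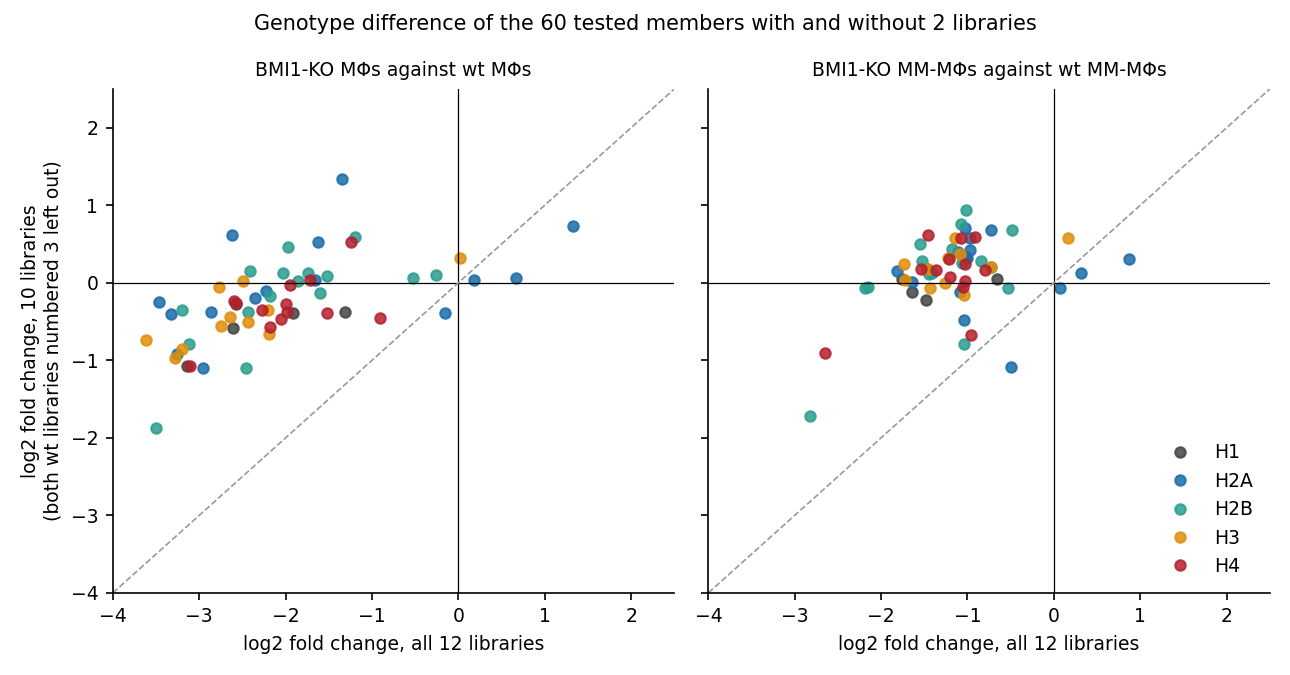
Log2 fold change of BMI1-KO against wt for the 60 tested genes in all 12 libraries (horizontal axis) and in 10 libraries without both wt libraries numbered 3 (vertical axis), for MΦs and MM-MΦs, coloured by family; the dashed line marks equal values. Most points leave the dashed line upward, from a median of −2.20 to −0.28 in MΦs and from −1.08 to 0.17 in MM-MΦs, with the BMI1-KO libraries numbered 3 kept in both fits.

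Co-culture with 5TGM1 cells was compared within each genotype. Without the replicate number as a block, the clustered histone genes showed no common direction in wt. The log2 fold change of MM-MΦs against MΦs had a median of −0.02 with 31 of 60 genes below 0 (49.3% of all genes), none was called (16 of 14197 genes were, 0.113%), and none had an unadjusted edgeR p under 0.05 (1.92% of all genes). The smallest p was that of Hist1h2al, at log2 0.97 (SE 1.22), and no gene had libraries without overlap, where 2.62% of all genes were lower and 3.04% higher in that way. DESeq2 called none and had none at an unadjusted p under 0.05. In BMI1-KO, 57 of 60 genes lay above 0 and 3 below (51.3% of all genes), with a median of 0.91, none was called (26 genes were, 0.183%), and none had an unadjusted p under 0.05 (2.89%) by either tool. The smallest p was that of Hist1h2an, an H2A gene, at log2 2.35 (SE 1.68). The libraries overlapped for 59 of the 60 genes, the exception being Hist2h2be, which was lower in MM-MΦs (log2 −0.58), where 3.37% of all genes were lower and 3.71% higher without overlap.

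These tests carry the spread between replicate numbers, which MΦs and MM-MΦs of 1 genotype shared. Read by number, the MM-MΦ sum divided by the MΦ sum came to 1.39, 1.28 and 0.885 for wt, beside 1.09, 1.59 and 2.17 for BMI1-KO. The ratio in BMI1-KO was above 1 in all 3 numbers for 4 of the 5 families, with H2A at 0.948 in number 1, and it was highest for H3 genes, at 1.52, 1.93 and 2.69. In wt it was below 1 in number 3 for all 5 families. Counted by gene, 33 of the 60 were higher in BMI1-KO MM-MΦs in all 3 numbers, against 14.7% of all genes, and 1 was lower in all 3 (15.4% of all). In wt, 14 of 60 were higher in all 3 numbers (15.0% of all) and 2 were lower (13.5%).

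With the replicate number as a block within genotype, 15 clustered histone genes rose in BMI1-KO MM-MΦs and none fell, where 254 genes of 14197 (1.79%) rose. They were 3 of 5 H1, 4 of 15 H2A, 2 of 16 H2B, 2 of 11 H3 and 4 of 13 H4 genes, and 41 of 60 had an unadjusted edgeR p under 0.05, against 10.7% of all genes. With 3 of 60 below 0 (51.5% of all genes), the median log2 fold change was 0.85, and by family it was 1.01 for H1, 0.99 for H2A, 0.75 for H2B, 1.22 for H3 and 0.67 for H4. In wt no gene passed the same fit, which called 157 of all genes (1.11%), with 6 of 60 at an unadjusted p under 0.05 (6.47% of all). In this wt fit 52 of 60 genes lay above 0 and 8 below (49.0% of all genes), with a median of 0.20. The smallest adjusted p was 0.154, for Hist1h1b (edgeR, log2 0.44, SE 0.13). The block is used here because libraries of the same number deviated together within each genotype, least so in number 2 of BMI1-KO (r = 0.18). This was read from the same values that were then tested, and the labels do not say that a number marks shared mice. None of the 15 genes was called without the block, or with the number as a block over all 4 groups.

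The 2 smallest p belonged to linker histone genes. Hist1h1d, encoding H1.3, was measured at 1.56, 5.24 and 14.1 CPM in BMI1-KO MΦs and at 4.57, 22.1 and 45.9 CPM in BMI1-KO MM-MΦs. It was higher after co-culture in each number, although the ranges of the groups overlapped, and rose by 1.81 on the log2 scale (SE 0.17, blocked edgeR adjusted p = 1.6e-07). In wt the same gene had 6.20, 23.3 and 155 CPM in MΦs and 11.6, 31.5 and 158 CPM in MM-MΦs. Hist1h1b rose by 1.01 (SE 0.15, blocked edgeR adjusted p = 0.000149) and Hist1h1a by 1.06 (SE 0.19, adjusted p = 0.000823). Hist1h1a was measured at 1.56, 8.58 and 12.3 CPM in BMI1-KO MΦs and at 2.34, 15.1 and 32.0 CPM in BMI1-KO MM-MΦs. Of the 15 genes, Hist1h1a and Hist1h1b are those that share no 50-base window with another gene.

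Among the core histone genes, Hist1h2be, an H2B gene, had 1.88, 3.43 and 7.90 CPM in BMI1-KO MΦs and 2.98, 10.7 and 18.7 CPM in BMI1-KO MM-MΦs, higher in each number (log2 1.27, SE 0.22, blocked edgeR adjusted p = 0.000768). Its gene model (chr13:23583670-23621124, minus strand) overlaps Hist1h1e on the same strand, and its CPM in wt MM-MΦs was lower than in wt MΦs in numbers 1 and 2. Hist1h2ab, an H2A gene, had 0, 1.62 and 4.27 CPM in BMI1-KO MΦs and 0.638, 5.21 and 10.1 CPM in MM-MΦs (log2 1.51, SE 0.32, adjusted p = 0.00668 by blocked edgeR). Hist1h3f, an H3 gene, had 0.833, 6.77 and 9.80 CPM in BMI1-KO MΦs and 1.81, 12.4 and 28.2 CPM in MM-MΦs (log2 1.22, SE 0.25, blocked edgeR adjusted p = 0.00764). Hist1h4k, whose promoter is printed above, had 0.833, 4.38 and 8.26 CPM in BMI1-KO MΦs and 1.28, 8.62 and 20.6 CPM in MM-MΦs (log2 1.11, SE 0.25, blocked edgeR adjusted p = 0.0108). Each was higher in MM-MΦs in all 3 numbers and overlapped between the groups as a whole. The divergent pair Hist1h2bn and Hist1h2ak rose by 0.85 and 1.09 on the log2 scale, with blocked edgeR adjusted p of 0.00269 and 0.0286. The remaining 6 genes were Hist1h2af (log2 1.10), Hist1h3a (1.04), Hist2h2ac (0.99), Hist1h4f (0.76), Hist1h4h (0.71) and Hist1h4d (0.67), with blocked edgeR adjusted p from 0.0245 to 0.0332.

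**Figure D4:**
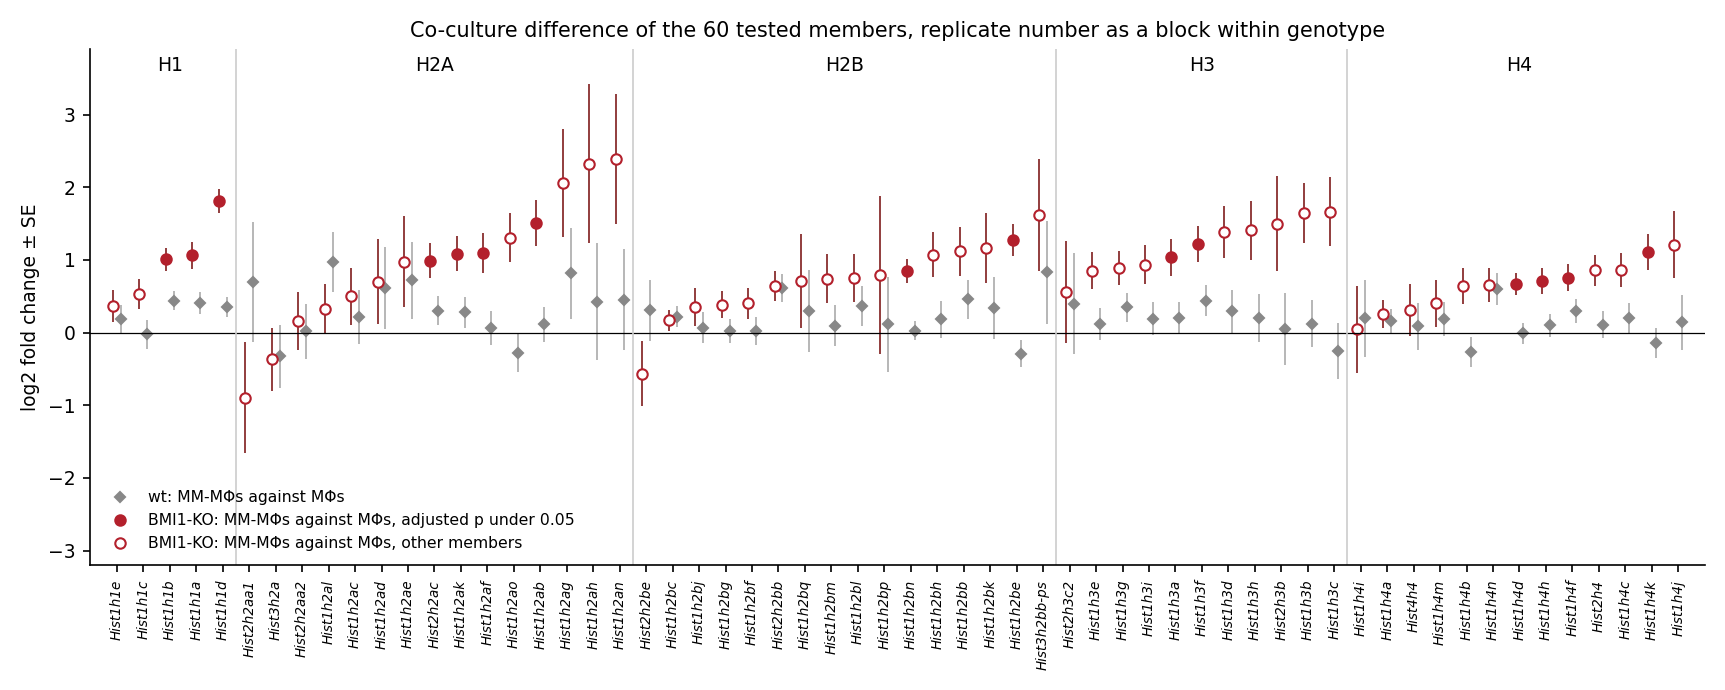
Log2 fold change ± SE of MM-MΦs against MΦs for the 60 tested genes, by family, with the replicate number as a block within genotype, in wt (grey diamonds) and BMI1-KO (red circles, filled where the edgeR adjusted p was under 0.05). The 15 filled circles are all above 0, while the grey diamonds lie closer to 0, at a median of 0.20.

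The number of genes called in BMI1-KO rested in part on the third pair of libraries, where the ratio was largest. It was 20 without pair 1, 10 without pair 2 and 3 without pair 3, and the share of all genes called is not given for these fits. Hist1h1b, Hist1h1d and Hist1h2be were called under all of these. Myeloma markers moved with co-culture in both genotypes. The 10 plasma cell and myeloma markers summed to 128 to 378 CPM in wt MΦs and 301 to 613 in wt MM-MΦs, beside 117 to 191 CPM before and 271 to 329 CPM after co-culture for BMI1-KO. Their highest genes, Prdm1 and Sdc1, were present in every library without co-culture too, and Sdc1 had 207, 77 and 157 counts in BMI1-KO MΦs and 188, 145 and 153 in MM-MΦs. Igkc, an immunoglobulin light chain and a defining product of plasma cells, had 8, 11 and 25 counts in BMI1-KO MΦs and 357, 586 and 1218 in BMI1-KO MM-MΦs, and 12, 157 and 31 counts in wt MΦs and 423, 1327 and 831 in wt MM-MΦs. Of the 6 markers tested, none passed the edgeR test without the block, and 2 in wt and 3 in BMI1-KO rose with it. The part of RNA from 5TGM1 cells, which divide, in the histone values of MM-MΦs was not tested.

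Whether co-culture acted differently in the 2 genotypes was tested as an interaction. Without the block, edgeR called no gene at all (0%). The value was above 0, meaning a higher fold change in BMI1-KO, for 55 of 60 clustered histone genes and below 0 for 5 (50.8% of all genes), with a median of 0.91. None had an unadjusted p under 0.05 by edgeR (0.888% of all genes) or DESeq2, and the smallest p was that of Hist1h3c (log2 2.47, SE 1.88). With the block within genotype, Hist1h1d was called at log2 1.46 (SE 0.22, edgeR adjusted p = 0.0125), the only gene of 14197 (0.00704%). Its log2 change was 1.81 in BMI1-KO, where all 3 pairs were higher, and its wt pairs were higher as well. The unadjusted p was under 0.05 for 24 of the 60 genes, against 3.28% of all, and 6 of 60 lay below 0, against 51.4% of all. In the same edgeR fit the next clustered histone gene, Hist1h2be, had a log2 value of 1.56 and an adjusted p of 0.0746. Hist1h1d was not called when BMI1-KO pair 2 or 3 or wt pair 3 was left out.

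Genes that act with the clustered histones were read from lists of S phase genes, G2 and M phase genes, replacement variants, factors of histone transcription and 3′ processing, and histone chaperones. None of the 24 S phase or 18 G2 and M phase genes tested was called in any comparison without the block, nor with it. All 24 S phase genes lay below 0 in BMI1-KO against wt, with a median log2 of −1.08 in MΦs and −0.89 in MM-MΦs, and all 18 G2 and M phase genes did so, with medians of −1.08 and −0.95. Among those with the smallest p in MM-MΦs were Pcna, the sliding clamp of replication (log2 −0.53), Tyms, thymidylate synthase (−1.57), and Pola1, the catalytic subunit of DNA polymerase alpha (−1.01), beside the mitotic kinesin gene Kif11 (−2.87), Mki67 (−1.16) and the anaphase ubiquitin-conjugating enzyme gene Ube2c (−1.19). The wt libraries numbered 3 stood out in these genes as they did in the histones: Mki67, the proliferation antigen, had 188, 304 and 1120 CPM in wt MΦs and 87.0, 258 and 302 CPM in BMI1-KO MΦs.

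The clustered histone sums varied more than those of the S phase genes and about as much as those of the G2 and M phase genes. The 24 S phase genes summed to 610, 751 and 2615 CPM in wt MΦs and 646, 854 and 2631 CPM in wt MM-MΦs. For BMI1-KO the sums were 356, 787 and 1068 CPM before co-culture and 402, 821 and 1163 CPM after it. The ratio of the histone sum to the S phase sum was 0.444, 0.772 and 1.36 for wt MΦs and 0.583, 0.866 and 1.19 for wt MM-MΦs, and for BMI1-KO it was 0.428, 0.471 and 0.464 before and 0.411, 0.718 and 0.927 after co-culture. It was nearly level over the 3 BMI1-KO MΦ libraries, although their histone sum ranged from 152 to 496 CPM. The 18 G2 and M phase genes summed to 139.6 to 3007 CPM over the 12 libraries, and the histone sum divided by theirs ranged from 0.524 to 1.22. After co-culture in BMI1-KO, with the block, the S phase genes had a median log2 of 0.20, with 4 of 24 at an unadjusted edgeR p under 0.05, and the G2 and M phase genes 0.30, with 5 of 18, beside 0.85 for the clustered histones. Whether the lists differ was not tested.

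**Figure D5:**
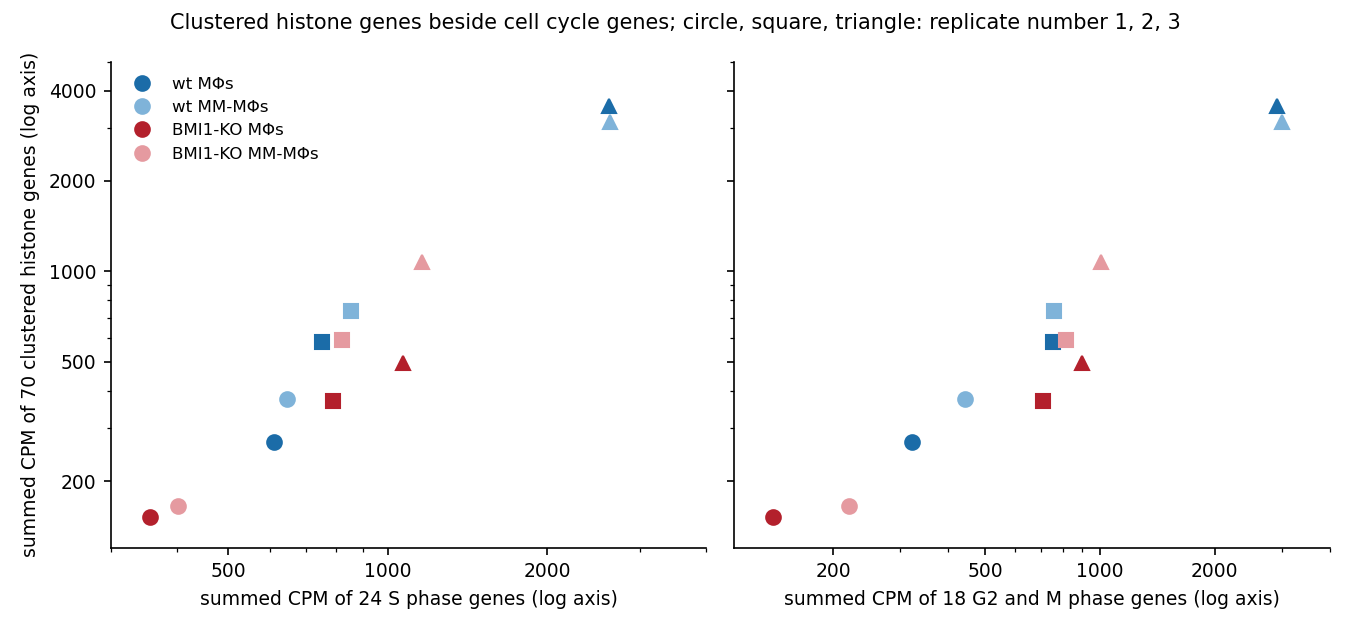
Summed CPM of the 70 clustered histone genes against summed CPM of 24 S phase genes (left) and 18 G2 and M phase genes (right) in each of the 12 libraries, all axes log, with colour for the group and shape for the replicate number. Both wt libraries numbered 3 lie far to the upper right of the other 10, and the libraries numbered 1 of BMI1-KO lie lowest on all axes.

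Most polyadenylated replacement variants had smaller fold changes than the clustered genes. Of 11 listed, 10 were tested and none was called, with a median log2 of −0.27 in BMI1-KO against wt in both cultures, −0.11 after co-culture in wt and −0.02 in BMI1-KO. H1f0, the linker histone of resting cells, had a log2 of −0.33 in BMI1-KO against wt MM-MΦs, H3f3a, which encodes H3.3, −0.22, and H2afz, which encodes H2A.Z, −0.51. H3f3a was measured at 157, 116 and 133 CPM in wt and 124, 113 and 111 CPM in BMI1-KO MM-MΦs, a range far narrower than that of the clustered H3 genes. H2afx, which encodes H2A.X and is named for its values, was measured at 8.23, 13.9 and 84.5 CPM in wt MΦs and 4.48, 11.4 and 16.8 CPM in BMI1-KO MΦs, with a log2 of −1.70 (−0.93 in MM-MΦs) and of 0.60 for co-culture in BMI1-KO with the block (edgeR adjusted p = 0.0806). None of the 21 tested genes of histone transcription and 3′ processing was called, with medians of −0.20 in MΦs and −0.23 in MM-MΦs for the genotype and 0.01 and 0.04 for co-culture in wt and BMI1-KO. Those with the smallest p in MM-MΦs were Cpsf2 (−0.29), of the cleavage complex, Mblac1 (−1.19), a nuclease of histone pre-mRNA, and Lsm1 (−0.46), of the decay complex. Of 21 chaperone and assembly genes none was called without the block, with genotype medians of −0.17 in MΦs and −0.22 in MM-MΦs, where Hat1, the acetyltransferase of new H4, had −0.60, Tonsl −1.17 and Chaf1b, a CAF-1 subunit, −0.82. With the block, Daxx, an H3.3 chaperone, rose in BMI1-KO MM-MΦs (log2 0.77, SE 0.14, edgeR adjusted p = 0.00126).

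None of the dendritic cell, stem and progenitor, neutrophil or stromal markers tested was called in a genotype comparison, and edgeR had 2, 1, 0 and 0 of them at an unadjusted p under 0.05 in MΦs and 2, 1, 1 and 0 in MM-MΦs. The 5 dendritic cell markers, led by Itgax and H2-Ab1, summed to 98.8 to 623 CPM in wt and 14.2 to 65.3 CPM in BMI1-KO libraries. Most of this sum was Itgax, at 1024 to 5719 counts in wt and 141 to 589 in BMI1-KO. H2-Ab1 had 96 to 295 and 7 to 70 counts. The 5 stem and progenitor markers, led by Cd34 and Gata2, summed to 10.6 to 22.0 CPM in wt and 29.9 to 94.8 CPM in BMI1-KO. Nearly all of this was Cd34, at 98 to 212 counts in wt and 281 to 1050 in BMI1-KO. Gata2 had 3 to 14 and 4 to 12 counts, so it did not share the higher level. Both sums thus mainly follow Itgax and Cd34 and do not measure a cell type. The 8 neutrophil markers, led by Ngp and Ltf, summed to 5.99 to 19.7 CPM in wt and 8.44 to 155 CPM in BMI1-KO libraries, and the 5 stromal markers, led by Col1a1 and Col1a2, to 9.91 to 50.3 CPM over all libraries. Their part in the histone values was not tested.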

How the data were processed

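RNA-seq was performed on 12 libraries of sorted bone marrow macrophages, 3 in each of 4 groups taken from the labels (MΦs and MM-MΦs of wt and of BMI1-KO mice). Total RNA libraries were sequenced by the authors, and the submitters' processing notes name bcl2fastq 2.17.1.14, cutadapt 1.9.1, HISAT2 2.0.1, HTSeq 0.6.1 and DESeq2, with mm10 (GRCm38). The sources used here do not give the strand setting or the treatment of reads that match several genes. The deposited values are raw counts per gene, which were used for all tests. The authors also deposited FPKM values, which served to take gene sizes and to check that all 70 clustered histone genes matched the counts in each library.

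Genes were tested with edgeR 4.0.16 (R 4.3.3; quasi-likelihood test, robust, TMM scaling, filterByExpr with a minimum count of 10 and total of 15) in a single fit of all 12 libraries with 4 group means, and p-values were Benjamini-Hochberg adjusted over 14197 genes at a threshold of 0.05. The SE was derived from the fold change and its F value. The 2 genotype comparisons, the 2 co-culture comparisons and the interaction share libraries, so their values are given side by side. As alternatives, DESeq2 1.42.0, other scalings and filters, the 6 libraries of a comparison alone, replicate blocks and leaving out libraries were run, and the code was tested on simulated data. Within a genotype, MΦ and MM-MΦ libraries of the same number deviated together from their group means (r = 0.548, 0.361 and 0.725 for numbers 1 to 3 in wt, and 0.642, 0.18 and 0.598 in BMI1-KO, over 14197 genes). The pairing comes from these values and not from the labels, and a fit with genotype and number as a block was given for comparisons within a genotype. Intervals of counts cover counting error only and are far smaller than the spread between libraries.

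Named were, per family, the 4 tested genes with the highest mean CPM per kilobase, every gene past the threshold (the 10 with the largest fold change where there were more), the gene with the smallest p in each comparison, the 3 genes of each other list with the smallest p in BMI1-KO against wt MM-MΦs, and the 2 highest genes of each cell type list; others, including Hist1h1d per kilobase, Hist1h2bc, Hist1h4m, Hist1h4b, Sdc1, Igkc, H2afx and Daxx where this rule does not cover them, were picked with their values in view. The clustered histone genes and all lists were chosen with earlier results of these data known.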

Additional observations from a re-analysis of the deposited data

Results flagged for a closer look

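Hist1h1d, the H1.3 gene, stood out because its change with co-culture differed between genotypes in a test of the difference itself. With the replicate number as a block within genotype, the interaction was 1.46 on the log2 scale (SE 0.22, edgeR adjusted p = 0.0125), with all 3 pairs higher in MM-MΦs in each genotype. Without the block the same gene did not pass.

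Hist1h4b, an H4 gene, stood out because its pairs moved in opposite directions. It was higher in MM-MΦs in 3 of 3 pairs in BMI1-KO, at 0.417, 3.62 and 7.17 CPM in MΦs and 0.638, 5.71 and 11.1 CPM in MM-MΦs. In wt it was lower in all 3 pairs, at 3.66, 5.92 and 45.1 CPM in MΦs and 2.30, 5.38 and 40.4 CPM in MM-MΦs. The gene was picked by this pattern, so no separate test was made. In the edgeR fits over all genes its interaction was not called, with or without the block within genotype. In neither genotype did its change pass the threshold with the block.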

How the results depend on the processing

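Of 798 recomputed fold changes (30 named folds), 713 kept their direction and side of the threshold, 76 newly passed it and 9 turned direction, in 5 folds. With the block within genotype or over all groups left aside, no clustered histone gene was called when a single library was left out, nor by DESeq2, RLE scaling, library totals, scaling without the histone genes, both other filters and the fit on 6 libraries. Over all genes, DESeq2 called 89, 78, 58 and 91 in the comparisons where edgeR called 8, 6, 16 and 26.

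Leaving out 1 library at a time moved the median log2 fold change to between −1.89 (without BMI1-KO MM-MΦs replicate 3) and 0.17 (without wt MM-MΦs replicate 3) for BMI1-KO against wt MM-MΦs, −2.78 to −0.27 for MΦs, −1.45 to 2.00 for co-culture in wt, 0.17 to 1.56 in BMI1-KO and −0.90 to 2.38 for the interaction. Without wt MM-MΦs replicate 3 the genotype fold in MM-MΦs turned for Hist1h2ak (−1.88 to 0.42 over single libraries) and Hist1h4f (−1.92 to 0.15). Without both wt libraries numbered 3, an alternative added after seeing the data, these were 0.43 and 0.16, and the median in MΦs was −0.28. Without all 4 libraries numbered 3, also added after seeing the data, none of these folds turned and no clustered histone gene was called. Hist1h1b in wt co-culture ranged from −1.61 to 2.49 and turned in 3 of these fits, Hist1h2bn in BMI1-KO from −0.050 to 1.68, and the interaction of Hist1h1d from −0.40 to 3.31.

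With the replicate block within genotype, 15 genes were called for co-culture in BMI1-KO. Added after seeing the data, the blocked DESeq2 fit called 13, blocked scaling without the histone genes 15, and leaving out pairs 1, 2 and 3 gave 20, 10 and 3. For the interaction the block called 1, DESeq2 2, scaling without the histone genes 1, leaving out BMI1-KO pair 1 gave 2, wt pair 1 gave 1 and wt pair 2 gave 2. With the number as a block over all 4 groups, BMI1-KO against wt called 11 clustered histone genes in MΦs (all lower) and 1 in MM-MΦs (Hist1h4m). It called none for co-culture in BMI1-KO (lowest adjusted p 0.0603 by edgeR) or the interaction, so that the 15 genes and Hist1h1d are not called under it. The share of all genes called is not given for this block or for the added blocked fits, so these counts have no background beside them. Between genotypes, numbers 1 and 3 deviated together (r = 0.481 and 0.503 in MΦs, 0.497 and 0.508 in MM-MΦs) and number 2 did not (−0.0313 and 0.0331), so the numbers were not taken as pairs there. Neither block called a clustered histone gene for co-culture in wt. The causes were not tested.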
